A study of Homo sapiens with 6 samples.

Results

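The genes described here are DCK, which encodes deoxycytidine kinase, and 9 other genes of deoxynucleoside salvage: the kinases DGUOK, TK1 and TK2, the deaminases CDA and DCTD, the transporters SLC29A1 and SLC29A2, the nucleotidase NT5C and the triphosphate hydrolase SAMHD1. They were found by symbol and make up 10 of the 62703 genes in the count table. The set was picked from these data for the large fall of DCK in shGXYLT2 cells, so the change of DCK is described without a test. The other 9 genes were taken for their role, with earlier results of the series known.

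RNA-seq was done on the established gastric cancer line HGC-27, of human origin, in medium with 10% fetal bovine serum. In 3 libraries (shGXYLT2) the cells stably carried a short hairpin RNA against GXYLT2, a xylosyltransferase acting on EGF repeats, and in 3 libraries (shControl, genotype given as WT) a control hairpin. The labels name 1 hairpin against GXYLT2 and leave unsaid how many clones or cultures stand behind the libraries, so every p-value here rests on a spread that may be technical. Library totals ran from 17291103 to 24898399 estimated counts. GXYLT2 itself stood at 20.7, 22.8 and 20.2 CPM (the estimated count relative to a library total scaled by TMM) in the shControl libraries and at 5.27, 6.27 and 5.34 CPM in the shGXYLT2 libraries. Here and below, values run in the order of replicates 1, 2 and 3.

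The libraries carried little of an epithelial or gastric programme. Of 11 such markers 5 had 0 counts in every library, and EPCAM reached at most 0.234 CPM and KRT18 at most 0.088 CPM. CDH1 was detected at 1.66 to 3.28 CPM and KRT8 at 1.23 to 2.02 CPM. The summed level was 6.50 to 7.38 CPM in shControl and 7.10 to 9.90 CPM in shGXYLT2, with a rise of MUC6 (edgeR adjusted p = 0.0029). The 3 mesenchymal markers summed to 2600 to 2800 CPM in shControl, against 2490 to 2660 CPM in shGXYLT2, nearly all of it from VIM, an intermediate filament gene. Within this sum FN1, the fibronectin gene, rose from 38.7 to 78.7 CPM (edgeR adjusted p = 2.3e-09). CDH2, the N-cadherin gene and the remaining mesenchymal marker, reached at most 0.2 CPM and was too low to test. The 5 leukocyte markers summed to 1.61 to 2.17 CPM in shControl and 1.08 to 1.76 CPM in shGXYLT2, and the 3 endothelial markers, 2 of them at 0 counts, to at most 0.24 CPM. Of 3 erythroid markers HBB had 0 counts, while HBA1 ran from 22.7 to 28.2 CPM, and their sum was 25.1 to 29.1 CPM in shControl and 23.9 to 26.6 CPM in shGXYLT2. The part of these markers in the results was not tested.

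Cells obtain the building blocks of DNA along separate routes. In the de novo route ribonucleotide reductase converts ribonucleotides to deoxyribonucleotides, while in the salvage route nucleosides enter through equilibrative transporters and are phosphorylated by deoxynucleoside kinases, of which the cytosolic DCK accepts deoxycytidine, deoxyadenosine and deoxyguanosine. Deaminases and nucleotidases drain the pathway and SAMHD1 splits the finished triphosphates. DCK is also known as the enzyme that activates nucleoside drugs such as gemcitabine and cytarabine.

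DCK was the member with the widest separation between the groups. The gene (ENSG00000156136) occupies bases 70992538 to 71030914 of chromosome 4 on the plus strand (GRCh38). Its level was 68.1, 73.4 and 69.2 CPM in the shControl libraries, against 27.4, 28.5 and 25 CPM after knockdown. All 3 shGXYLT2 libraries thus lay far below the lowest shControl library, and neither group spanned more than a few CPM. The means were 70.2 ± 2.82 and 27 ± 1.80 CPM (SD, n = 3 each), so that DCK fell by 61.6%, and the fitted log2 fold change was -1.38. These values rest on 557 to 1573 counts per library, and the replicate coefficient of variation was 4.02% in shControl and 6.68% in shGXYLT2. Counting alone gives 4.24% at the lowest count, 557 in shGXYLT2 replicate 3, and less at the 1184 to 1573 counts of shControl. Among the 10046 tested genes whose log2 CPM averaged 3 or more, this was the third lowest fold change (rank 3), and among all 15693 tested genes it ranked 39 from the bottom. With any 1 library left out, or with another scaling, filter or tool, the log2 fold change of DCK stayed between -1.42 and -1.32. In these bulk libraries fewer cells with DCK transcripts and less DCK RNA per cell cannot be told apart.

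**Figure D1:**
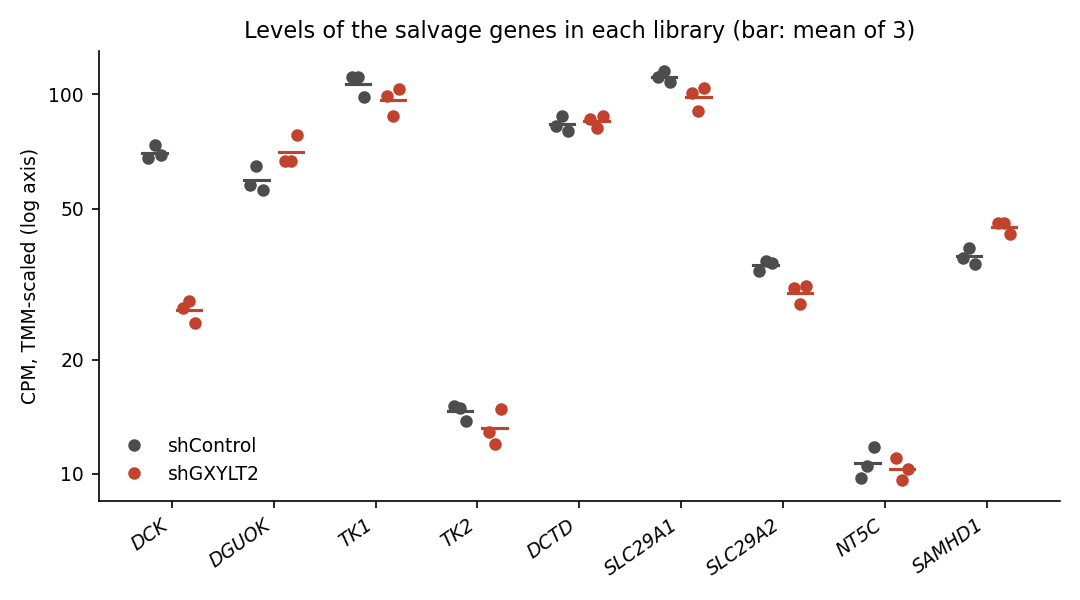
CPM of the 9 detected salvage genes on a log axis, one point per library, with 3 shControl libraries (grey) and 3 shGXYLT2 libraries (red) and a bar at each mean. DCK lies at 68.1 to 73.4 CPM in shControl and 25 to 28.5 CPM in shGXYLT2, while the groups of the other genes lie close together or overlap.

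Genes around DCK on the chromosome did not fall with it by the test. MOB1B, an activator of the Hippo kinases LATS, is annotated on the same strand and shares 199 exonic bases with DCK, so reads in that stretch could belong to either gene. Its mean was 61.5 ± 4.92 CPM in shControl and 58.9 ± 6.68 CPM in shGXYLT2 (SD, n = 3 each; adjusted p = 0.69, from edgeR's quasi-likelihood test with adjustment by Benjamini and Hochberg over all tested genes). Of the nearest protein-coding genes that do not overlap, GRSF1, a binding protein of mitochondrial RNA, averaged 162 and 169 CPM (adjusted p = 0.55) and RUFY3 averaged 38.9 and 37.3 CPM (adjusted p = 0.68). SLC4A4, a bicarbonate transporter gene that starts 31753 bases past the end of DCK, rose from 20.1 to 24.7 CPM, a log2 fold change of 0.29 (edgeR adjusted p = 0.036). GC, the next gene on that side, had 0 counts in every library.

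The 3' UTR of DCK carries a 7-base word, GACTCAT, searched on the transcript strand, which an earlier search of these same fold changes had found more often in genes that fell. DCK was among the genes searched, so its copy is no independent evidence. The longest annotated 3' UTR of a DCK transcript labelled protein-coding has 1603 bases and holds 1 copy, starting at base 958 of the UTR. None of the other 9 members held the word in its longest 3' UTR, and of the 1909 tested genes whose 3' UTR was within 20% of that length 107 held it (5.61%), as did 8.18% of 12623 tested genes with a 3' UTR of any length. Of 73 genes in 6 wider lists of nucleotide metabolism and drug handling, 3 held it: WEE1, which fell, and CTPS1 and ABCC5, which did not pass the test. Among the genes named around DCK, GRSF1 held it in its longest 3' UTR and did not pass (edgeR adjusted p = 0.55). GXYLT2 holds it in the coding sequence of its longest transcript, from base 645 of that transcript. The 29-base windows below, taken from GENCODE 29 transcripts (GRCh38) and written 5′ to 3′ on the transcript strand, show the word in capitals, so that the flanks of the sites can be compared. They lie at chr4:71030258-71030286 (DCK), chr11:9588977-9589005 (WEE1), chr1:41011241-41011269 (CTPS1), chr3:183986241-183986269 (ABCC5) and chr3:72922208-72922236 (GXYLT2), all on the plus strand except ABCC5 on the minus strand.
DCK: aataatgaatgGACTCATcttagttctgt
WEE1: acatgctaaaaGACTCATtactactcagc
CTPS1: taacacggatgGACTCATtaatcccctga
ABCC5: agaaagtaatgGACTCATccataatctct
GXYLT2: gccagtggcctGACTCATatacaaagaag

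The windows were also compared with the GXYLT2 window, with no estimate of the matches that unrelated sequences would give. Aligned on the word, the DCK window matched that of GXYLT2 at 11 of 29 positions, those of the word included, and the run through the word went no further than its 7 bases. WEE1 and ABCC5 also matched at 11 positions and CTPS1 at 10. The genes CTPS1 and ABCC5 stood at means of 260 and 259 CPM and of 45.3 and 48.2 CPM in shControl and shGXYLT2. These values are counted per gene, and the word was searched only in the longest annotated 3' UTR. How much of the RNA of each gene carried the word was therefore not measured. The hairpin sequence is not given in the sources used here, and whether the word has a part in the lower level of DCK was not tested.

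The other kinases did not follow DCK. DGUOK, the mitochondrial kinase of purine deoxynucleosides (chromosome 2, bases 73926826 to 73958961), stood at 57.8, 64.7 and 55.9 CPM in shControl and 66.9, 66.7 and 78.2 CPM in shGXYLT2. Every shGXYLT2 library lay above the shControl libraries, the nearest pair being 64.7 and 66.7 CPM. DGUOK rose from 59.5 ± 4.62 to 70.6 ± 6.60 CPM (SD, n = 3 each), with a log2 fold change of 0.25 ± 0.0769 (SE) and an edgeR adjusted p of 0.040. The edgeR adjusted p was 0.16 without shControl replicate 1, 0.21 without shControl replicate 3, 0.073 without shGXYLT2 replicate 3 and 0.072 with the replicate number as a block.

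TK1, the cytosolic thymidine kinase that peaks in S phase (chromosome 17, bases 78174075 to 78187233), stood at 111, 111 and 98.1 CPM in shControl and at 98.7, 87.8 and 103 CPM in shGXYLT2. The groups overlapped, with shControl replicate 3 inside the range of the shGXYLT2 libraries. Its log2 fold change was -0.15, with a 95% interval from -0.29 to 0.00 (edgeR adjusted p = 0.21). TK2, the mitochondrial kinase of pyrimidine deoxynucleosides (chromosome 16, bases 66508003 to 66552544), was the least abundant kinase, at 15.1, 14.9 and 13.8 CPM in shControl and 12.9, 12 and 14.8 CPM in shGXYLT2. Its groups overlapped as well (log2 fold change -0.14, 95% interval -0.36 to 0.07, edgeR adjusted p = 0.43). A change of 2-fold in either gene lies outside these intervals.

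DCK thus made up a smaller part of the kinase transcripts. On a per-length scale, CPM per kilobase of the deposited gene length, DCK held 16.4%, 16.8% and 17.8% of the summed level of the 4 kinases in shControl, against 7.35%, 8.06% and 6.12% in shGXYLT2. The share of DGUOK was 33.8% to 35.9% in shControl against 43.7% to 46.6% in shGXYLT2. The share of TK1 overlapped between the groups, at 39.2% to 41.5% and 38.6% to 41.1%, as did that of TK2. The summed per-length level of the 4 kinases was 158 ± 9.02 CPM per kilobase in shControl and 145 ± 10.1 in shGXYLT2 (SD, n = 3 each), with libraries that overlapped. The mean DCK share was 17 ± 0.721% and 7.18 ± 0.982%. No test is given, because the share contains the value that DCK was picked for.

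**Figure D2:**
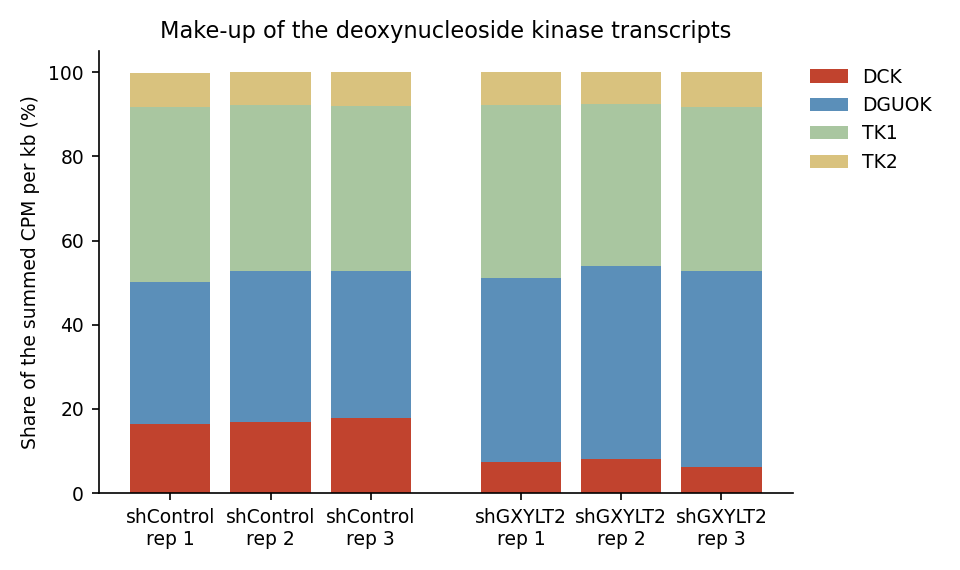
Share of DCK, DGUOK, TK1 and TK2 in their summed CPM per kilobase of deposited gene length, stacked to 100% for each of the 6 libraries. DCK takes 16.4% to 17.8% in shControl but 6.12% to 8.06% in shGXYLT2.

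Both nucleoside transporters were somewhat lower in every shGXYLT2 library, and with all libraries only SLC29A2 passed the test. SLC29A1, the equilibrative transporter ENT1 of the plasma membrane (chromosome 6, bases 44219505 to 44234151), stood at 111, 115 and 108 CPM in shControl and 101, 90.5 and 104 CPM in shGXYLT2. All shGXYLT2 libraries were lower, yet the log2 fold change of -0.17 (95% interval -0.31 to -0.04) did not pass the test across all genes (edgeR adjusted p = 0.094). It passed only without shGXYLT2 replicate 3, at -0.21 and an adjusted p of 0.014. SLC29A2, the related transporter ENT2 (chromosome 11, bases 66362521 to 66372214), stood at 34.3, 36.4 and 36.0 CPM in shControl and 30.9, 28.0 and 31.2 CPM in shGXYLT2. The groups did not overlap, and SLC29A2 fell from 35.6 ± 1.16 to 30.0 ± 1.78 CPM (SD, n = 3 each), with a log2 fold change of -0.25 ± 0.0762 (SE) and an edgeR adjusted p of 0.041. This call was lost in 9 of 13 alternatives. Leaving out shControl replicate 1, 2 or 3 gave an adjusted p of 0.097, 0.15 or 0.16, and leaving out shGXYLT2 replicate 1 or 2 gave 0.080 or 0.10. It was 0.065 with upper-quartile factors, 0.078 without a filter, 0.070 with DESeq2 and 0.085 with the replicate block.

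Of the deaminases, CDA was not detected. CDA converts deoxycytidine and its drug analogues to uridine forms (chromosome 1, bases 20588948 to 20618908). It had 0 counts in all 6 libraries, and a count of 0 allows up to 3 counts, or 0.120 to 0.176 CPM by library. DCTD, which deaminates dCMP on the way to thymidylate (minus strand of chromosome 4, bases 182890060 to 182917936), stood at 82.5, 87.7 and 79.9 CPM in shControl and 86.2, 81.6 and 87.7 CPM in shGXYLT2. The libraries of the groups were mixed along this range, and the log2 fold change was 0.03 with a 95% interval from -0.10 to 0.16 (edgeR adjusted p = 0.81).

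SAMHD1, which splits deoxynucleoside triphosphates and also the triphosphates of some nucleoside drugs (chromosome 20, bases 36889773 to 36951901), moved the other way from DCK. Its level was 37.1, 39.3 and 35.8 CPM in shControl and 45.8, 45.8 and 42.8 CPM in shGXYLT2. All shGXYLT2 libraries were higher than all shControl libraries. SAMHD1 rose from 37.4 ± 1.76 to 44.8 ± 1.71 CPM (SD, n = 3 each), with a log2 fold change of 0.26 ± 0.0713 (SE) and an edgeR adjusted p of 0.020. The adjusted p was 0.10 without shControl replicate 1, 0.13 without shControl replicate 3 and 0.078 without shGXYLT2 replicate 1. On the per-length scale the ratio of DCK to SAMHD1 was 2.59 to 2.72 in shControl against 0.824 to 0.880 in shGXYLT2, a ratio that holds the picked value of DCK and has no test. With the exon union of GENCODE 29 as length it was 6.41 to 6.74 and 2.04 to 2.18, so whether DCK stands above or below SAMHD1 in shGXYLT2 depends on the length used.

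NT5C, a cytosolic nucleotidase that removes the phosphate from deoxyribonucleotides (chromosome 17, bases 75130225 to 75131795), was the member with the fewest counts among those detected, 170 to 276 per library. It stood at 9.77, 10.5 and 11.8 CPM in shControl and 11, 9.61 and 10.3 CPM in shGXYLT2. The ranges overlapped almost wholly (log2 fold change -0.06, 95% interval -0.30 to 0.18, edgeR adjusted p = 0.80). Without shControl replicate 3 the log2 fold change was 0.02.

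Reads of other annotated genes could be mixed into some of these values, since the use of strand in counting is not given in the sources used here. SAMHD1 shares 1159 exonic bases with TLDC2, at means of 0.161 and 0.140 CPM in the respective groups, and SLC29A2 shares 279 with AP001107.9, which averaged 2.88 CPM in both groups. NT5C shares 913 exonic bases with AC022211.4, at 0.584 and 0.414 CPM, and 41 with ARMC7, at 11 and 9.48 CPM. DGUOK shares 62 with its antisense gene DGUOK-AS1, at 0.331 and 0.236 CPM. Of the genes on TK2 the highest averaged 0.102 CPM in shControl.

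Of the 8 tested members other than DCK, DGUOK and SAMHD1 rose, SLC29A2 fell and 5 did not pass. Over all 15693 tested genes 12.2% were called, 5.31% as higher and 6.84% as lower in shGXYLT2. The groups did not overlap in 4 of these 8 members, and in 30.4% of all tested genes. With 8 genes this is a count beside a background and shows nothing particular to salvage. Leaving out shControl replicate 1, 2 or 3 gave 0, 2 or 0 called members and 990, 1152 or 960 called genes in all, and leaving out shGXYLT2 replicate 1 gave 1 called member. The median log2 fold change was -0.101 over the 8 members and -0.006 over all tested genes. Each of the 3 calls was a change of about 1.2-fold (fitted folds 1.19 and 1.20 higher, 1.19 lower). The members' replicate coefficients of variation were 3.13% to 9.71% in shControl and 3.70% to 10.8% in shGXYLT2, beside medians of 4.27% and 6.89% over the same 10046 genes.

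**Figure D3:**
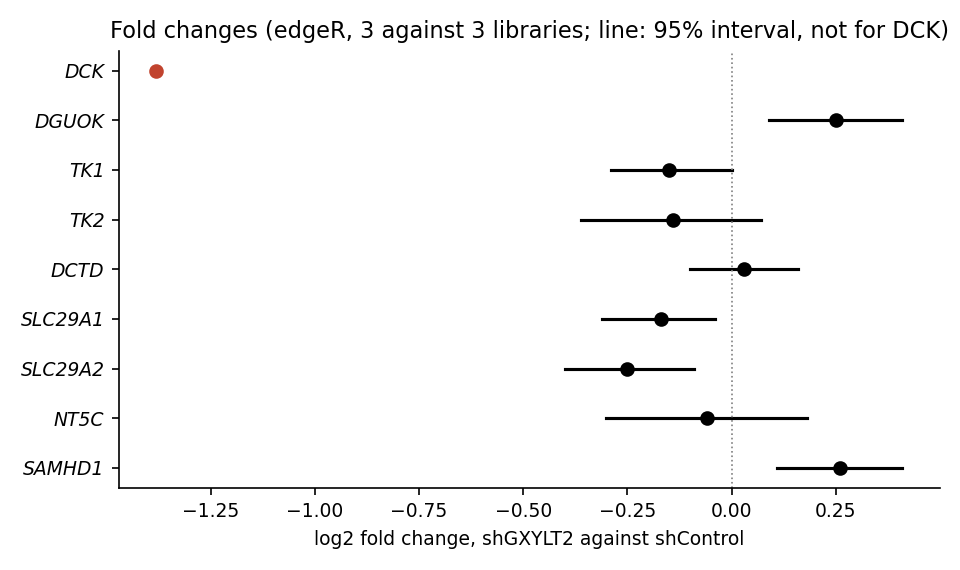
Log2 fold change of shGXYLT2 against shControl for each tested salvage gene, with its 95% interval from the edgeR fit over 3 against 3 libraries (DCK in red, as a point without an interval or test). DCK sits at -1.38, and the other genes lie between -0.25 and 0.26.

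**Figure D4:**
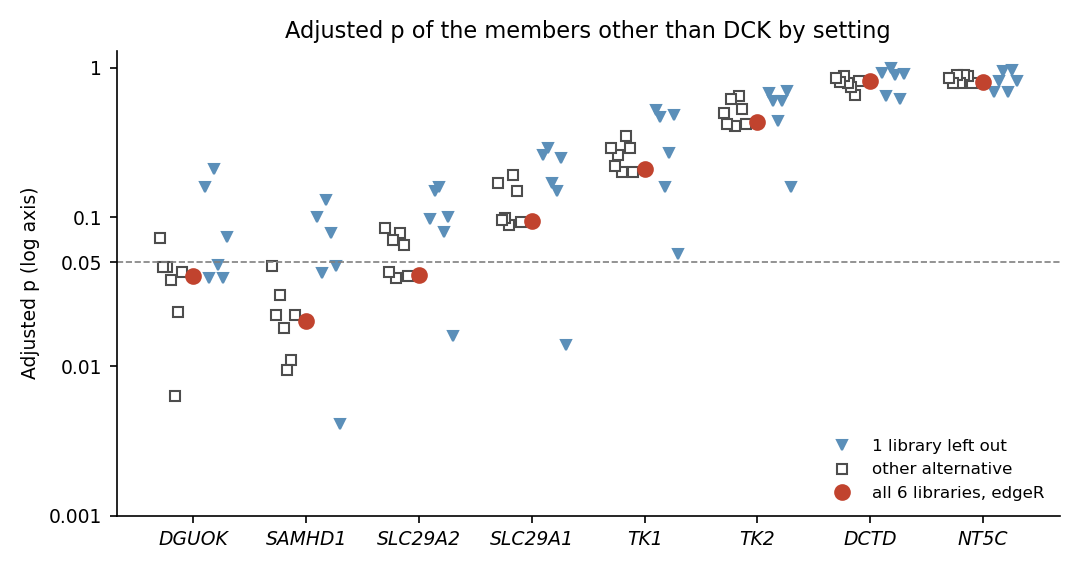
Adjusted p on a log axis for the 8 tested members other than DCK, from all 6 libraries (red circle), from 6 fits with 1 library left out (blue triangles) and from 7 other alternatives (open squares), with a dashed line at 0.05. DGUOK, SAMHD1 and SLC29A2 cross the line under several settings, and SLC29A1 crosses it in 1 fit with a library left out.

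In shControl cells the salvage genes spanned a wide range of levels per length. TK1 led at 63.5 ± 4.48 CPM per kilobase (SD, n = 3), followed by DGUOK at 55.3 ± 4.30, and the libraries of these neighbours overlapped. SLC29A1 (47.1 ± 1.47), DCTD (43.2 ± 2.06), DCK (26.9 ± 1.08) and SLC29A2 (14.5 ± 0.472) came next, each apart from the following gene in every library. TK2 (12.6 ± 0.634) and NT5C (11.9 ± 1.16) overlapped, and SAMHD1 (10.1 ± 0.476) stood below them and above the undetected CDA. In shGXYLT2 cells DCK stood at 10.3 ± 0.690 CPM per kilobase and in place 9, below NT5C, TK2 and SAMHD1. Its libraries (9.57 to 10.9) overlapped those of TK2 (10.4 to 12.8) and NT5C (10.7 to 12.2), so these places were not separated. The places depend on the gene length used: with the exon union of GENCODE 29 DCK kept place 5 in shControl and took place 6 in shGXYLT2, while TK2 moved from place 7 to 9, NT5C from 8 to 7 and SAMHD1 from 9 to 8. The separations in shControl depend on it too. With the exon union SLC29A1 (24.4 to 26.0 CPM per kilobase) and DCTD (23.0 to 25.3) overlapped, while TK1 and DGUOK did not.

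Most tested genes of the wider routes of nucleotide supply did not pass the test, as in the table as a whole. Of 64 tested genes in the 6 lists, 1 rose, 4 fell and 59 did not pass, with a median log2 fold change of -0.012, where 5.31% of all tested genes rose and 6.84% fell. The counts by list are a description beside these shares. Ribonucleotide reductase, the enzyme of the de novo route, did not pass the test: the mean of its large subunit RRM1 went from 314 ± 9.41 to 290 ± 9.95 CPM (n = 3 each, with SD), at an edgeR adjusted p of 0.20. The small subunit RRM2 averaged 340 ± 12.9 and 329 ± 11.5 CPM (adjusted p = 0.66), and TYMS, which makes thymidylate, averaged 348 and 343 CPM (adjusted p = 0.88). The 95% intervals of their log2 fold changes were -0.23 to 0.00, -0.16 to 0.07 and -0.14 to 0.10. These 3 genes were named after their values were seen.

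In the list of reduction and thymidylate synthesis 1 of 16 tested genes fell and none of them rose. TXNRD1, the thioredoxin reductase that supplies electrons to ribonucleotide reductase, fell from 410 ± 8.67 to 307 ± 6.85 CPM (SD, n = 3 each), a log2 fold change of -0.42 (edgeR adjusted p = 2.9e-05). The median log2 fold change of the list was 0.007.

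Among 11 tested nucleotidases and breakdown enzymes 1 rose and none fell. DPYD, which degrades uracil and thymine, rose from 22.1 ± 1.5 to 28.7 ± 1.66 CPM (SD, n = 3 each), a log2 fold change of 0.37 (edgeR adjusted p = 0.0059, and 0.054 without shControl replicate 1). The list had a median of 0.02.

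Of 12 tested genes of other nucleoside salvage and transport, PNP was the only one that passed. PNP, the purine nucleoside phosphorylase, fell from 121 ± 6.4 to 104 ± 8.88 CPM (SD, n = 3 each), a log2 fold change of -0.22 (edgeR adjusted p = 0.043) with groups that overlapped. The p of PNP became 0.21, 0.16 or 0.063 on leaving out shControl replicate 1, 2 or 3 and 0.19 or 0.11 on leaving out shGXYLT2 replicate 1 or 2. It was 0.069 with upper-quartile factors and 0.085 with the replicate block. The median of the list was -0.038. The concentrative transporters SLC28A1, SLC28A2 and SLC28A3 were too low to test.

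None of 5 tested genes of pyrimidine synthesis passed the edgeR test, among them CTPS1, a CTP synthase and the most abundant (adjusted p = 0.99), and CAD, which starts the route (198 and 214 CPM, adjusted p = 0.27). Of 13 tested genes of purine synthesis 1 fell: ADSS1, an adenylosuccinate synthase, went from 6.79 ± 0.705 to 3.90 ± 0.407 CPM (SD, n = 3 each), a log2 fold change of -0.80 (edgeR adjusted p = 0.0013), from a low level of 78 counts or more per library. ADSS2, the other adenylosuccinate synthase gene of the list, was more abundant, averaging 81.1 CPM in shControl and 75.4 CPM in shGXYLT2. It did not pass (log2 fold change -0.1, edgeR adjusted p = 0.32). The medians of the pyrimidine and purine lists were 0.113 and -0.067.

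Among 7 tested genes of nucleoside analogue efflux and response, WEE1 fell, the kinase that holds CDK1 and CDK2 inactive until DNA is replicated. WEE1 stood at 70.2, 71.9 and 72.3 CPM in shControl and 46.4, 46.6 and 45.8 CPM in shGXYLT2, tight groups far from each other. The log2 fold change was -0.63 (SE 0.0631, edgeR adjusted p = 1.4e-06). The other 6 genes, among them ABCC5, an exporter of nucleotide analogues, did not pass, and the list had a median of -0.012.

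**Figure D5:**
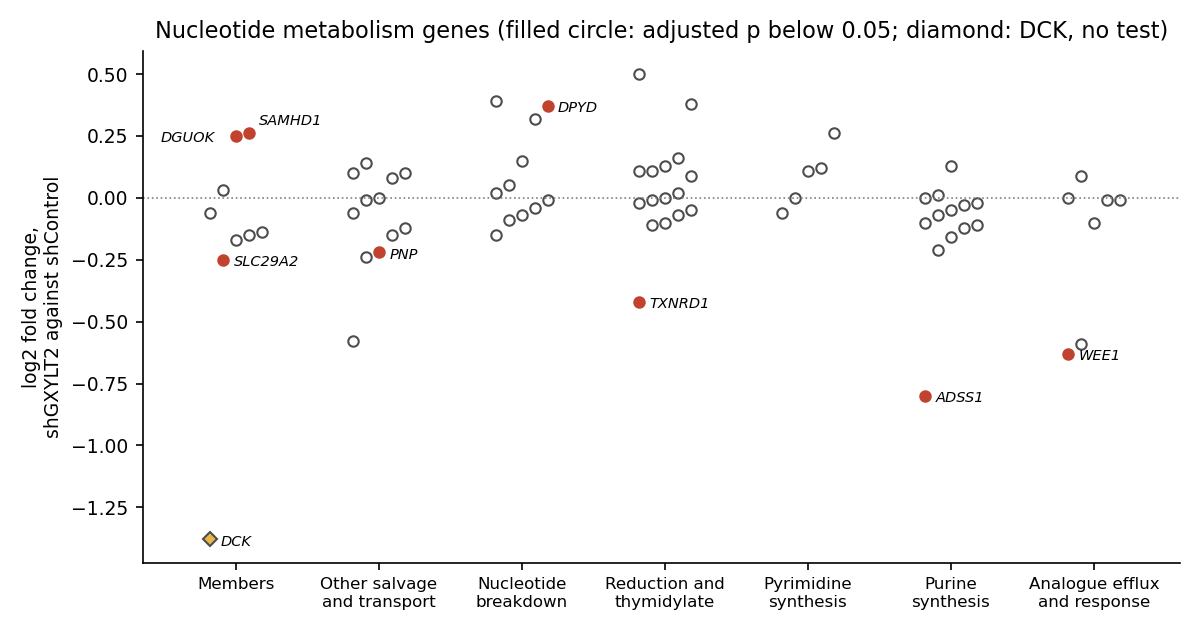
Log2 fold change of shGXYLT2 against shControl for the tested salvage genes and for the tested genes of 6 wider lists, one point per gene. Filled red circles mark edgeR adjusted p below 0.05, open circles the rest, and the diamond at -1.38 is DCK, which has no test; the called genes of the wider lists lie between -0.80 (ADSS1) and 0.37 (DPYD).

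The 5 genes with profiles nearest to DCK lay outside the salvage set. DCK was picked for its fall, while the log2 fold changes of the other tested members lay between -0.25 and 0.26. This outcome was therefore fixed in advance and shows nothing about salvage. Likeness was the Euclidean distance over the 6 libraries between log2 CPM profiles, each centred on its own shControl mean, computed for 9606 protein-coding genes averaging a log2 CPM of 3 or more. The nearest was NEK7, a mitotic kinase and inflammasome component (distance 0.243), followed by DKK1, a Wnt antagonist (0.322), MAT2B, a regulatory subunit of methionine adenosyltransferase (0.335), LRATD2 (0.348) and COPS8, a subunit of the COP9 signalosome (0.370). NEK7 stood at 126, 122 and 121 CPM in shControl and 54.6, 52.8 and 41.1 CPM in shGXYLT2. NEK7, LRATD2 and COPS8 hold the word in their longest 3' UTR, and DKK1 and MAT2B do not. Of 12623 tested genes with a 3' UTR, 8.18% hold it. These 5 genes were chosen for falling like DCK in the fold changes from which the word is known, so this count supports nothing about the word.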

How the data were processed

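Estimated counts per gene, not normalized, were deposited by the authors in 1 table (12.3% of values not whole) and were rounded to whole numbers here. The submitters' processing notes name HISAT2, StringTie, fastp and GRCh38.p13. Their versions, the counter and the annotation release were not given in the sources used here. Gene length, a column deposited in the table, has no stated definition. Libraries were prepared with a stranded mRNA kit, per the labels' protocols. Sample titles gave groups and replicate numbers.

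The comparison of 3 shGXYLT2 with 3 shControl libraries used edgeR 4.0.16 (R 4.3.3): filterByExpr, TMM factors and the robust quasi-likelihood test over 15693 genes, with group as the only term and Benjamini-Hochberg adjustment at 0.05. Intervals are 95% and follow the fit. Alternatives used limma 3.58.1 and DESeq2 1.42.0. The fit was first tested on simulated counts with 200 changed genes. Of 42 genes changed 1.3-fold and averaging a log2 CPM of 3 or more, 85.7% were found. No smaller change was simulated, so this does not cover the smaller changes called among the members. Positions, overlaps and 3' UTRs came from GENCODE 29, which matched 92.9% of identifiers; 3' UTRs ran from the stop codon to the end of protein-coding transcripts. Plots used matplotlib 3.10.9.

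Members and lists were chosen with earlier results of these data known, and 2 genes of the lists are not reported here. Named genes are the 10 members, GXYLT2 and every passing gene of the 6 lists (where none passed, the 2 most abundant). Also named are the 2 nearest protein-coding genes on each side of DCK, genes overlapping members and the 5 nearest to DCK. RRM1, RRM2, TYMS, ADSS2, FN1, MUC6 and other single markers were named after their values were seen.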

Additional observations from a re-analysis of the deposited data

How the results depend on the processing

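Under 13 alternatives the log2 fold changes of the 8 tested members other than DCK and 5 genes of the wider lists kept direction and side of the threshold in 143 values. In 24 a call was lost, in 1 gained (SLC29A1), and NT5C (-0.06 with all libraries, -0.12 to 0.02 with 1 library left out) reversed to 0.02 without shControl replicate 3. TXNRD1, ADSS1 and WEE1 kept their calls under all 13. The number of called members other than DCK, 3 with all libraries, was 0 to 3 with 1 library left out, and 0 without shControl replicate 1 or 3. The number of all called genes ran from 960 to 2347 with 1 library left out, beside 1907 with all. With the replicate number as a block it was 1471, and 1 member (SAMHD1) was called. Libraries with the same number in their titles did not deviate together (correlations 0.005, -0.043 and -0.023), so the numbers were not taken as pairs. The column names of the count table number some libraries otherwise and skip a number in each group. Title numbers therefore need not mark libraries handled together, and whether further libraries were made was not examined. With the exon union as length the DCK share of the kinases was 17.8% in shControl and 7.61% in shGXYLT2. Depth limits NT5C and TK2 most: counting alone gives a variation of up to 7.67% and 6.26% per library.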
